A study of Mus musculus with 7 samples.

Results

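The D cyclins, their kinases CDK4 and CDK6, and the CDK inhibitors of the CIP/KIP and INK4 families were followed in bone marrow cells of C57BL/6 mice that carried a RUNX1 mutation, overexpressed HMGA2, or both. The genes were named by symbol: Ccnd1, Ccnd2, Ccnd3, Cdk4, Cdk6, Cdkn1a, Cdkn1b, Cdkn1c, Cdkn2c and Cdkn2d. Of these 10, 9 were among the 28987 genes of the table used here, and all 9 reached 1 TPM in at least 2 libraries. Cdkn2d, the INK4 inhibitor p19, was not analysed here. TPM is a length-normalized share of a library's transcripts, so levels of different genes can be set side by side within a library.

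RNA was sequenced from 7 libraries, each made from total RNA of marrow taken from individual mice. Hematopoietic stem and progenitor cells (HSC/P) were enriched by selection for CD117, the receptor Kit, and the mutant clone was then sorted. The HSC/P libraries were 1 of genotype HMGA2-OE and 2 of genotype RUNX1mut/HMGA2-OE, so every HSC/P library overexpressed HMGA2 and no HSC/P control was analysed here. The Ly6G+ libraries, from sorted myeloid marrow cells, were 1 each of the genotypes Control, HMGA2-OE, RUNX1mut and, with both changes, RUNX1mut/HMGA2-OE. The driver of the HMGA2 transgene, the kind of RUNX1 mutation, and the age of the mice were not stated in the labels. Only HSC/P RUNX1mut/HMGA2-OE was replicated, and each of the 6 tested comparisons rests on 1 or 2 residual degrees of freedom.

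The sorts were checked against defining markers. The summed TPM of 7 HSC/P markers, Kit and Cd34 among them, was 318 to 845 in HSC/P and 9.37 to 35.4 in Ly6G+ libraries. That of 10 neutrophil markers was 273182 to 657774 in Ly6G+ and 17511 to 59496 in HSC/P libraries. Ly6g itself was at 136 TPM in HSC/P HMGA2-OE and at 7.28 and 16.8 TPM in the other HSC/P libraries, against 270 to 441 TPM in Ly6G+ cells. Hmga2 was at 138 to 176 TPM in HSC/P, at 3.72 and 12.1 TPM in the Ly6G+ libraries with HMGA2-OE and at 1.36 and 1.45 TPM in those without. Runx1 was at 219 and 225 TPM in HSC/P with the mutation and 18.9 TPM without it, and at 11.6 and 21.2 against 3.36 and 3.85 TPM in Ly6G+ cells. The neutrophil transcript S100a8 alone took 40.2% to 55.0% of TPM in 3 Ly6G+ libraries and 3.11% in RUNX1mut/HMGA2-OE. Libraries were scaled before testing. Without scaling, the median gene was 1.46 higher (log2) in HSC/P than in Ly6G+ cells and 0.58 higher with the RUNX1 mutation within Ly6G+ cells.

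D cyclins bind and activate CDK4 and CDK6, which phosphorylate the retinoblastoma protein and so release E2F transcription factors to start S phase. INK4 inhibitors such as p18 (Cdkn2c) bind the kinases themselves, while the CIP/KIP inhibitors p21 (Cdkn1a), p27 (Cdkn1b) and p57 (Cdkn1c) bind cyclin and kinase complexes. In bone marrow these genes are known for setting how often stem and progenitor cells divide, and neutrophils leave the cell cycle as they mature.

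Promoter windows from RefSeq (GRCm38.p6), covering the 250 bases before the annotated start, were matched for 7 of the 10 genes. The Cdk6 window lies inside the span that GENCODE M21 gives for that gene, not before it. Those of Cdk4 and Cdk6 are shown because both kinases were higher in HSC/P and Cdk4 also separated the Ly6G+ libraries by RUNX1 genotype. On scaled TPM so did Cdk6 and Cdkn2c, higher with the mutation, and Ccnd3 and Cdkn1b, lower with it. The window of Cdkn1b, whose scaled level overlapped between the cell types, is shown beside them. Each reads 5′ to 3′ along the gene, and capitals mark CACGTG, the E-box that Myc and Max can bind, and ACCACA, which is the RUNX motif TGTGGT on the opposite strand.
Cdk4, chr10:127063285-127063534, plus strand: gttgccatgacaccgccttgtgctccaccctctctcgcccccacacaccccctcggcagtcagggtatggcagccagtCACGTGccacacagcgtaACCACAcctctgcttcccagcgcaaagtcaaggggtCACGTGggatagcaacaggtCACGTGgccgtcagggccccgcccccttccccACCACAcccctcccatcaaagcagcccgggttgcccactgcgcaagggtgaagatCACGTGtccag
Cdk6, chr5:3343643-3343892, plus strand: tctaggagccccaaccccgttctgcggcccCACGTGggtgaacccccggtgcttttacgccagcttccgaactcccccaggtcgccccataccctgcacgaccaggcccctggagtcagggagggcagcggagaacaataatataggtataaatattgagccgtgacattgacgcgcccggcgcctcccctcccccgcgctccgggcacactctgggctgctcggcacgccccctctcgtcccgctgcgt
Cdkn1b, chr6:134920151-134920400, plus strand: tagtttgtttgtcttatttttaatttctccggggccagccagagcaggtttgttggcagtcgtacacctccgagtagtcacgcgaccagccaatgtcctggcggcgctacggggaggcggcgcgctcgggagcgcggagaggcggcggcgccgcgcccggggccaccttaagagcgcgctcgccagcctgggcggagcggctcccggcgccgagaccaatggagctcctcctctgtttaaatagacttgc

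The Cdk4 window held 4 E-boxes, 172, 118, 98 and 11 bases before the start, and the Cdk6 window held 1, 220 bases before it. These were 2 of the 7 matched genes. Neither window of Cdkn2c, which was also higher in every HSC/P than in every Ly6G+ library, held an E-box. CACGTG, which reads the same on both strands, was in 6.021% of the 32851 promoter windows of this length, and 7 windows, or 0.0213%, held 4 or more. Both RUNX motifs of Cdk4 lay 154 and 66 bases before the start. A RUNX motif (TGTGGT or TGCGGT, either strand) was in 18.59% of all windows. Among the matched windows of the 7 genes, none held an E2F motif, searched as the letters TTTCGCGC, TTTGGCGC, TTTCCCGC and TTTGCCGC on both strands, and 1.86% of all windows did. These are matches of letters, not measured binding.

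**Figure D1:**
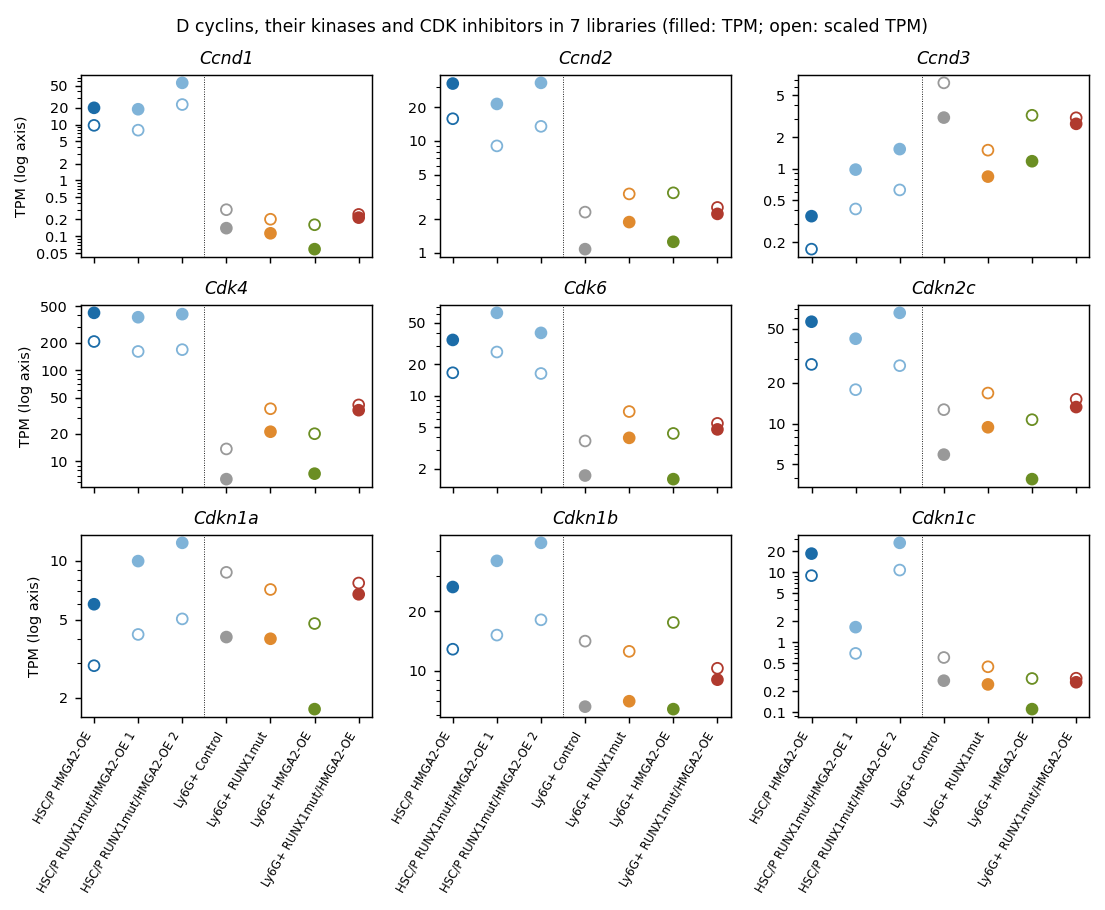
TPM of the 9 measured genes in each of the 7 libraries on log axes, as deposited (filled circles) and after scaling over all 7 libraries (open circles); the dotted line separates HSC/P from Ly6G+ libraries. Ccnd1, Ccnd2, Cdk4, Cdk6, Cdkn1c and Cdkn2c lie higher in every HSC/P than in every Ly6G+ library on both scales, and Ccnd3 lies lower on the scaled one.

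The first comparison set HSC/P against Ly6G+ cells within the HMGA2-OE genotypes. The level of Hmga2 was not matched, at 138 to 176 TPM in HSC/P against 3.72 and 12.1 TPM in the Ly6G+ libraries with HMGA2-OE. Ccnd1, Ccnd2, Cdk4 and Cdk6 rose in HSC/P, by 3.70, 1.92, 2.56 and 1.8 on the log2 scale, whereas Ccnd3 and Cdkn1a fell by 1.78 and 0.61. Cdkn1b, Cdkn1c and Cdkn2c did not pass the test. The fit used the 5 libraries with HMGA2-OE, 3 HSC/P and 2 Ly6G+, with the RUNX1 mutation as a second term (limma on log2 of scaled TPM plus 1, two-sided, adjusted over all genes). These 6 of 9 calls stand beside 64.7% of the 12686 genes tested, 32.2% higher and 32.5% lower, so the number of calls was near the background. Ccnd1 and Cdkn1c were in the fit only through the HSC/P libraries, where they were high. At an unadjusted p under 0.05 the background was 69.1%. The genes' median difference was 1.8, against 0.10 over all genes tested. Without scaling, Ccnd2, Cdk4 and Cdk6 were 3.44, 4.38 and 3.41 higher, 8 genes passed as higher and 0 as lower, against 64.4% and 8.88% of all genes, and the medians were 3.34 and 1.46. In such bulk libraries, fewer cells expressing a gene and less RNA per cell cannot be told apart.

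Ccnd1 encodes cyclin D1 (ENSMUSG00000070348, chromosome 7, 144929931 to 144939925, minus strand, mm10). Its level was 20.1 TPM in HSC/P HMGA2-OE and 18.9 and 56.2 TPM in the pair that also had the RUNX1 mutation. In Ly6G+ cells it was 0.14 TPM in Control, 0.06 in HMGA2-OE, 0.11 in RUNX1mut and 0.22 with both changes. Ccnd1 was thus under 1 TPM in all 4 Ly6G+ libraries and passed the filter on low TPM only through the HSC/P libraries. That filter favoured a higher value in HSC/P, so the test of Ccnd1 is no separate support for its direction. The difference was 3.70 ± 0.50 (SE; limma adjusted p = 0.0043), a value that the added 1 TPM lowers.

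Ccnd2 (ENSMUSG00000000184, chromosome 6, 127125162 to 127152193, minus strand) encodes cyclin D2. It was at 32.5 TPM in HSC/P HMGA2-OE and 21.4 and 33.0 TPM in the mutant pair, a 1.54-fold range. Ly6G+ levels were 1.08 TPM in Control, 1.25 in HMGA2-OE, 1.88 in RUNX1mut and 2.22 with both changes. All HSC/P libraries lay above all Ly6G+ libraries, and the difference was 1.92 ± 0.23 (SE; limma adjusted p = 0.0031).

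Ccnd3, which encodes cyclin D3 (ENSMUSG00000034165, chromosome 17, 47505051 to 47599691, plus strand), ran the other way. HSC/P libraries held 0.35 TPM in HMGA2-OE and 0.98 and 1.54 TPM in RUNX1mut/HMGA2-OE. Ly6G+ libraries held 3.06 TPM in Control, 1.18 in HMGA2-OE, 0.84 in RUNX1mut and 2.67 with both changes. As deposited the cell types overlapped, and after scaling every HSC/P library was lower, at 0.17 to 0.63 against 1.5 to 6.57. The difference was −1.78 ± 0.24 (SE; limma adjusted p = 0.0042). Without scaling it was −0.70 and did not pass (limma adjusted p = 0.0846).

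Within each library the 3 D cyclins therefore made up different sums. Ccnd3 was 0.667%, 2.37% and 1.69% of summed D cyclin TPM in the HSC/P libraries. It was 71.6% in Ly6G+ Control, 47.3% in HMGA2-OE, 29.7% in RUNX1mut and 52.3% with both changes. Shares within a library do not depend on the scaling, and the Ccnd3 share was higher in each Ly6G+ than in each HSC/P library. The sum itself was 41.3 to 90.8 TPM in HSC/P and 2.49 to 5.11 TPM in Ly6G+ cells, as deposited. A higher Ccnd3 share therefore also reflects lower Ccnd1 and Ccnd2, and is no separate evidence of a higher Ccnd3 level. Ccnd1 took 37.9% to 62.0% of the sum in HSC/P and 2.36% to 4.22% in Ly6G+ cells. Ccnd2 was between 25.1% and 66.3% of the sum in all libraries, with both extremes in Ly6G+ cells.

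Cdk4 (ENSMUSG00000006728, chromosome 10, 127063534 to 127067920, plus strand) was the most abundant of the 9 transcripts in every library but Ly6G+ Control, where Cdkn1b was slightly higher. It was at 425 TPM in HSC/P HMGA2-OE and at 381 and 411 TPM in the mutant pair. Ly6G+ libraries were at 6.40 TPM in Control, 7.35 in HMGA2-OE, 21.2 in RUNX1mut and 36.5 with both changes. HSC/P levels lay close together and far above the Ly6G+ levels, which themselves differed by genotype. The cell type difference was 2.56 ± 0.33 (SE; limma adjusted p = 0.0038).

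Cdk6 (ENSMUSG00000040274, chromosome 5, 3341485 to 3531008, plus strand), the second D cyclin kinase, was at 34.1 TPM in HSC/P HMGA2-OE and at 62.1 and 39.9 TPM in RUNX1mut/HMGA2-OE. Ly6G+ cells had 1.72 TPM in Control, 1.59 in HMGA2-OE, 3.94 in RUNX1mut and 4.75 with both changes. Its groups did not overlap, and its difference was 1.8 ± 0.24 (SE; limma adjusted p = 0.0043). Cdk4 exceeded Cdk6 in all 7 libraries, 6.13 to 12.5 times in HSC/P and 3.73 to 7.68 times in Ly6G+ cells, so these ratios overlapped between the cell types.

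Among the inhibitors, Cdkn2c (p18, INK4 family; ENSMUSG00000028551, chromosome 4, 109660876 to 109667189, minus strand) was at 56.2 TPM in HSC/P HMGA2-OE and 42.1 and 65.3 TPM in RUNX1mut/HMGA2-OE. It was at 5.90 TPM in Ly6G+ Control, 3.89 in HMGA2-OE, 9.38 in RUNX1mut and 13.2 with both changes. HSC/P values were higher than every Ly6G+ value, also after scaling, where they were 17.8 to 27.2 against 10.7 to 16.8. The difference of 0.87 ± 0.28 (SE) missed the threshold (limma adjusted p = 0.0527). With all 7 libraries in the fit it was 0.81 and passed (limma adjusted p = 0.0443), as it did without RUNX1mut/HMGA2-OE replicate 1, at 1.03, and without scaling, at 2.61. It was 0.49 without HSC/P HMGA2-OE and 0.53 without Ly6G+ HMGA2-OE, neither of which passed.

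Cdkn1b (p27, CIP/KIP family; ENSMUSG00000003031, chromosome 6, 134920401 to 134925513, plus strand) was at 26.5 TPM in HSC/P HMGA2-OE and 35.9 and 44.2 TPM in RUNX1mut/HMGA2-OE. Ly6G+ libraries read 6.58 TPM in Control, 6.39 in HMGA2-OE, 7.01 in RUNX1mut and 9.0 with both changes. As deposited all HSC/P libraries were higher. Scaled levels overlapped, at 12.8 to 18.1 in HSC/P and 10.3 to 17.5 in Ly6G+ cells. Its difference was 0.21 (95% interval −0.64 to 1.05; limma adjusted p = 0.583), and it was 1.97 without scaling (limma adjusted p = 0.000434). It was 0.68 without Ly6G+ HMGA2-OE (limma adjusted p = 0.0491) and −0.49 without Ly6G+ RUNX1mut/HMGA2-OE, so 1 library set its direction.

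Cdkn1a (p21, a CIP/KIP inhibitor and p53 target; ENSMUSG00000023067, chromosome 17, 29090976 to 29100727, plus strand) ranged from 1.74 to 12.4 TPM. HSC/P had 6.00 TPM in HMGA2-OE and 9.97 and 12.4 TPM in RUNX1mut/HMGA2-OE. Ly6G+ cells had 4.08 TPM in Control, 1.74 in HMGA2-OE, 4.0 in RUNX1mut and 6.74 with both changes. Both scales overlapped between the cell types. The call of −0.61 ± 0.18 (SE; limma adjusted p = 0.0376) was lost when any 1 of the 5 libraries was left out, with differences of −0.66 to −0.56, and without scaling the difference was 0.95 (limma adjusted p = 0.0296).

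Cdkn1c (p57, a CIP/KIP inhibitor known for quiescent stem cells; ENSMUSG00000037664, chromosome 7, 143458339 to 143461050, minus strand) showed the widest spread inside a genotype. It was at 18.5 TPM in HSC/P HMGA2-OE, 1.65 TPM in RUNX1mut/HMGA2-OE replicate 1 and 26.4 TPM in replicate 2. Ly6G+ levels were 0.28 TPM in Control, 0.11 in HMGA2-OE, 0.25 in RUNX1mut and 0.27 with both changes. Like Ccnd1, it passed the filter on low TPM only through the HSC/P libraries, which favoured a higher value there. Every HSC/P library was above every Ly6G+ library, but the difference of 2.48 ± 1.01 (SE) did not pass (limma adjusted p = 0.0917). Without replicate 1 it was 3.17 and passed (limma adjusted p = 0.0076), as it did without scaling, at 3.34. It was 1.72 without replicate 2 and 1.86 without HSC/P HMGA2-OE, neither of which passed.

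**Figure D2:**
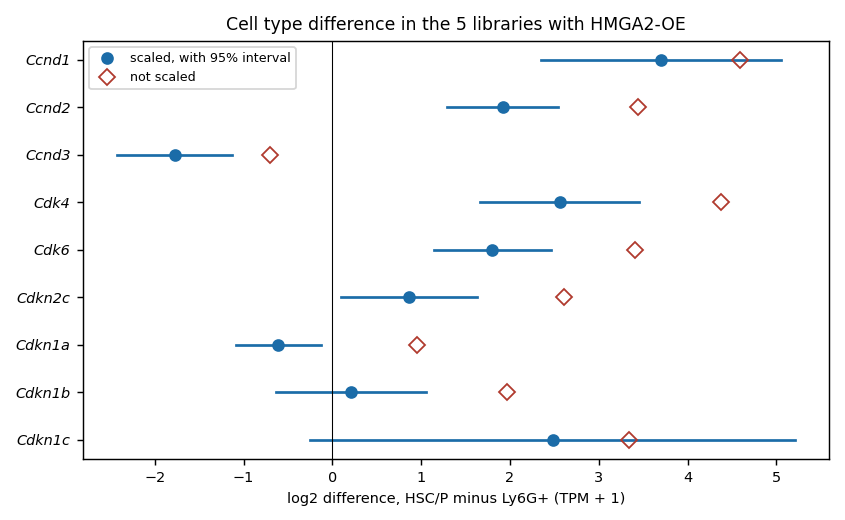
Log2 difference (HSC/P minus Ly6G+, 5 libraries with HMGA2-OE) of the 9 genes with 95% intervals, from limma on scaled TPM plus 1 (filled circles), and the same difference without scaling (open diamonds). Ccnd1 is farthest to the higher side at 3.70 and Ccnd3 farthest to the lower side at −1.78, the intervals of Cdkn1b and Cdkn1c cross 0, and Cdkn1a lies at −0.61 scaled and 0.95 unscaled.

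Read by overlap of all 7 libraries, 6 of the 9 genes were higher in HSC/P on the scaled TPM, Ccnd1, Ccnd2, Cdk4, Cdk6, Cdkn1c and Cdkn2c, against 35.1% of 12881 genes. Ccnd1 and Cdkn1c, under 1 TPM in every Ly6G+ library, were again included only through HSC/P. Ccnd3 was the 1 gene lower without overlap, against 35.4%. As deposited, 7 were higher, with Cdkn1b added, against 66.5% of genes, and 0 were lower, against 9.18%.

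Inhibitor and kinase levels can be set against each other within a library. The summed TPM of Cdkn1a, Cdkn1b, Cdkn1c and Cdkn2c over that of Cdk4 and Cdk6 was 0.233 in HSC/P HMGA2-OE and 0.202 and 0.329 in RUNX1mut/HMGA2-OE. In Ly6G+ cells it was 2.07 in Control, 1.36 in HMGA2-OE, 0.821 in RUNX1mut and 0.709 with both changes. The ratio was lower in each HSC/P library than in each Ly6G+ library, and in Ly6G+ cells it was lower in both libraries with the RUNX1 mutation. As deposited, the inhibitor sum itself was higher in HSC/P, 89.6 to 148 TPM against 12.1 to 29.2. The kinase sum was 443 to 459 TPM against 8.12 to 41.2. On that scale 66.5% of 12881 genes were higher in HSC/P without overlap. After scaling, Cdkn1a and Cdkn1b overlapped between the cell types, so the sums as deposited overstate the inhibitor difference. Among the inhibitors summed, which leave out Cdkn2d, Cdkn2c was the largest in the HSC/P libraries, at 44.0% to 52.4% of the inhibitor sum. Cdkn1b was the largest in Ly6G+ Control at 39.1% and in HMGA2-OE at 52.6%, and Cdkn2c in the 2 mutant Ly6G+ libraries at 45.5% and 45.2%.

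**Figure D3:**
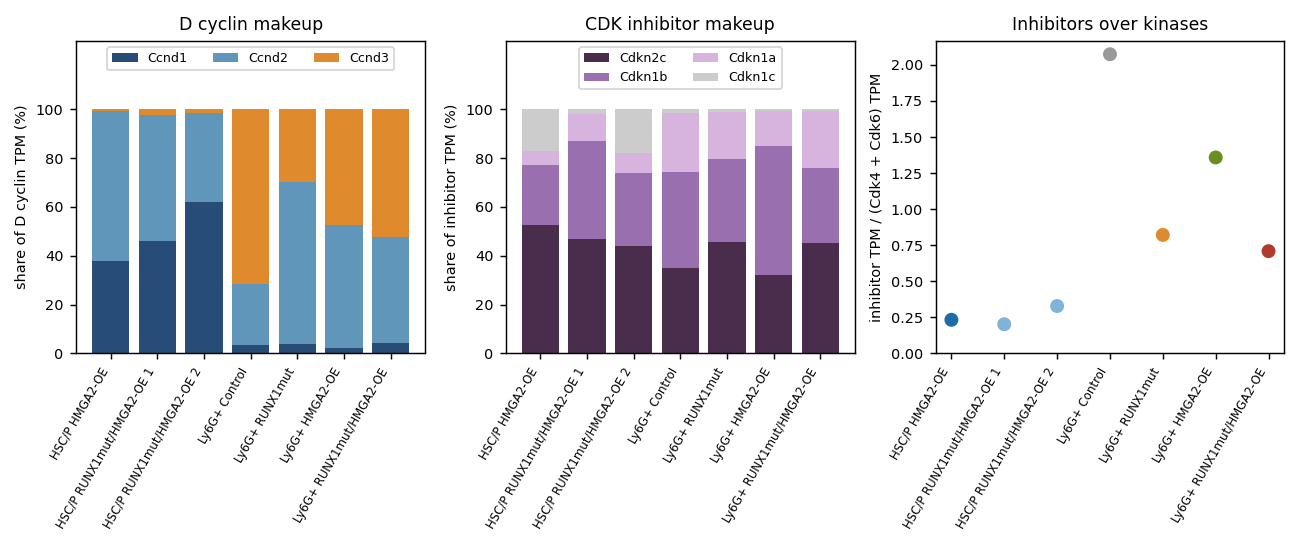
Left and middle, percent of summed D cyclin TPM and of summed inhibitor TPM taken by each gene in each library; right, inhibitor TPM divided by Cdk4 plus Cdk6 TPM, no error bar since each point is 1 library. Ccnd3 reaches 71.6% in Ly6G+ Control and stays at or under 2.37% in HSC/P, and the right panel falls from 2.07 in Ly6G+ Control to 0.202 in 1 HSC/P library.

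The pathway downstream of the kinases was counted in the same comparison from lists of known function. Over all genes tested, 32.2% were higher and 32.5% lower, with a median of 0.10. Of 14 E2F targets of S phase, 13 rose in HSC/P and 0 fell, with a median difference of 1.98. They included the replication clamp gene Pcna (2.77 ± 0.22, SE) and the licensing factor genes Cdt1 (2.41 ± 0.21) and Mcm2 (2.27 ± 0.24). Of 13 RB and E2F family genes, 8 rose and 3 fell, with a median of 1.13. Tfdp2, which encodes an E2F partner (2.63 ± 0.27), E2f6, a repressor (2.5 ± 0.16), and E2f3 (2.09 ± 0.18) were higher, and E2f2 was lower (−1.95 ± 0.19).

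Of 10 later cyclins and CDKs, 4 rose and 0 fell, with a median of 0.21, beside 32.2% higher and a median of 0.10 over all genes. With upper quartile scaling 7 rose, beside 5424 of 12686 genes, and without scaling 10 did, beside 8170. The 4 were Ccne1 (1.53) and Ccne2 (1.44), which encode the E cyclins that act after the D cyclins, and Ccnh (1.49) and Mnat1 (1.93), which encode parts of the CDK-activating kinase. Of 8 genes for turnover and activation of inhibitors and CDKs, 4 rose and 1 fell, against 32.2% and 32.5% of all genes. Skp2, whose product marks p27 for degradation, rose by 1.67, Wee1, a CDK-inhibiting kinase, by 1.43, and Cdc37, a chaperone partner of CDK4, by 0.77. Fbxo31, which targets cyclin D1, fell by 1.53.

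Of 10 tested genes of p53 and its targets, 2 rose and 5 fell, against 32.2% and 32.5% of all genes. Their median was −0.45, and it was 0.05 with upper quartile scaling and 1.33 without scaling. Trp53 and Bax, an apoptosis gene named after its value was seen, rose by 2.29 and 0.92, while Gadd45a, Sesn2 and Trp53inp1 fell by 4.25, 3.18 and 3.01. Without scaling 6 rose and 3 fell, against 64.4% and 8.88% of all genes. Of 8 upstream regulators 4 rose and 1 fell, against the same 32.2% and 32.5%. They included Myc (3.84), Cebpa (2.93) and Hmga2 (2.42), with Cebpe, a factor of late granulocyte maturation, at −2.10. With trimmed mean, upper quartile and no scaling, the median was 1.98, 2.46 and 3.53 for the S phase list, 1.13, 1.63 and 2.89 for the RB and E2F list and 0.21, 0.67 and 1.93 for the later cyclins, beside 0.10, 0.50 and 1.46 over all genes. Without scaling, 0 genes of the RB and E2F, turnover and upstream lists were called lower, against 8.88% of all genes. Of 3 further genes with CDK inhibitor symbols, only Cdkn3, which encodes a phosphatase of CDKs and no INK4 or KIP inhibitor, was tested. It fell by 1.75, a difference of 0.07 without scaling. Cdkn2a, which encodes p16 and p19ARF, was at 0.35 to 1.38 TPM in HSC/P and listed at 0 in the 4 Ly6G+ libraries, and Cdkn2b, which encodes p15, was at 0 to 0.21 TPM in all libraries.

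In HSC/P, the RUNX1 mutation on HMGA2 overexpression was compared by 2 libraries against 1, so each difference rests on the single HMGA2-OE library. No gene passed among 12226 (0%), and 15.6% had an unadjusted limma p under 0.05. None of the 8 genes tested passed, and none had an unadjusted p under 0.05, while Ccnd3 was under the filter on low TPM. Cdkn1a had a difference of 0.64 (95% interval −0.03 to 1.31; limma adjusted p = 0.332), Cdkn1b of 0.41 (−0.12 to 0.94; adjusted p = 0.391) and Cdk4 of −0.27 (−0.58 to 0.04; adjusted p = 0.354). Scaled levels of Cdkn1a were 6.48 in HMGA2-OE and 9.75 and 11.7 in RUNX1mut/HMGA2-OE, and those of Cdk4 were 460 against 372 and 389, so neither gene overlapped. Without overlap, 3 genes were higher (Cdk6, Cdkn1a, Cdkn1b) and 2 lower (Ccnd2, Cdk4), against 37.8% and 41% of all genes.

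The RUNX1mut/HMGA2-OE pair itself differed most in Cdkn1c, 16-fold, and in Ccnd1, 2.97-fold, both higher in replicate 2. The other genes were 1.08 to 1.57-fold apart in TPM. Their differences by genotype were −1.35 ± 1.52 (SE) for Cdkn1c and 0.52 ± 0.69 for Ccnd1. They ran from −2.98 to 0.34 for Cdkn1c and from −0.20 to 1.29 for Ccnd1 according to which of the pair was kept. Megakaryocyte genes were higher in the same library: Pf4 was at 339 TPM in replicate 1 and 983 in replicate 2, and Gp9 at 38.8 and 163. Of 4 mast cell and basophil markers Fcer1a was at 0.29 and 46.0 TPM, and the other 3 summed to 224 and 211 TPM. The summed TPM of 5 megakaryocyte markers was 410 in HMGA2-OE and 715 and 1927 in the pair. Their part in the Ccnd1 and Cdkn1c values was not tested.

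In Ly6G+ cells, Cdk4 had the largest RUNX1 term of the 7 genes tested. After scaling within Ly6G+ cells it was at 7.11 in Control and 10.7 in HMGA2-OE, and at 20.8 in RUNX1mut and 23.1 in RUNX1mut/HMGA2-OE. Both mutant libraries were above both others. No Ly6G+ genotype had a replicate, so the errors of the additive fit measure departure from additivity, not spread between mice. The RUNX1 term of the additive fit to the 4 libraries was 1.24 ± 0.16 (SE; 95% interval 0.70 to 1.78; limma adjusted p = 0.331), which did not pass. It was 1.87 without scaling and 0.59 when all 7 libraries shared 1 RUNX1 term. No gene of 9820 passed (0%), and 14.3% had an unadjusted p under 0.05. Taken as single pairs with no test, Cdk4 was 2.69-fold higher in RUNX1mut than in Control and 2.07-fold higher in RUNX1mut/HMGA2-OE than in HMGA2-OE. At least 2-fold higher were 5.36% and 4.93% of genes in those pairs, and Cdk4 was the only member at or above 2-fold higher in either.

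Cdkn2c followed at 6.55 and 5.64 in Control and HMGA2-OE against 9.21 and 8.38 in RUNX1mut and RUNX1mut/HMGA2-OE, a RUNX1 term of 0.47 ± 0.12 (SE; limma adjusted p = 0.342) that was 1.06 without scaling and 0.13 with all 7 libraries. Cdk6 was at 1.91 and 2.30 against 3.87 and 3.01, with a term of 0.51 ± 0.20 (adjusted p = 0.382). Ccnd3 was lower in both mutant libraries, at 0.82 and 1.69 against 3.40 and 1.70, though RUNX1mut/HMGA2-OE and HMGA2-OE were nearly equal, and Cdkn1b was at 6.88 and 5.70 against 7.30 and 9.26. Their terms were −0.64 ± 0.41 and −0.34 ± 0.20 (SE), and neither passed. In RUNX1mut over Control, Ccnd3 was 2.41-fold lower, where 3.56% of genes were at least 2-fold lower. No member was 2-fold lower in RUNX1mut/HMGA2-OE over HMGA2-OE, against 4.99% of genes. Without overlap, 3 of the 7 tested genes were higher (Cdk4, Cdk6, Cdkn2c) and 2 lower (Ccnd3, Cdkn1b), against 26.1% and 24.5% of genes. As deposited, 5 were higher (Ccnd2, Cdk4, Cdk6, Cdkn1b, Cdkn2c), against 60.1%, and 0 lower, against 2.34%. Ccnd1 and Cdkn1c were under the filter.

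**Figure D4:**
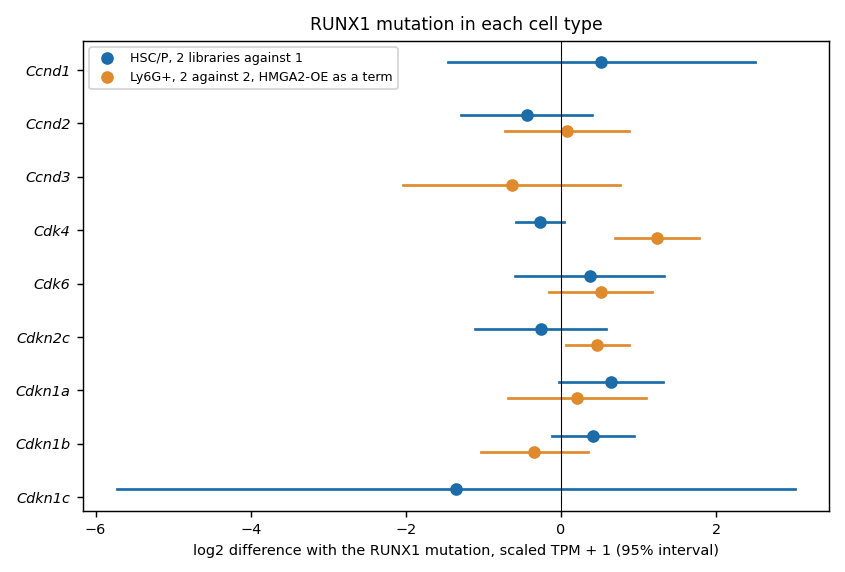
Log2 difference with the RUNX1 mutation, with 95% intervals, in HSC/P (2 against 1 library) and in Ly6G+ cells (RUNX1 term over 4 libraries), from limma on scaled TPM plus 1; a gene under the filter has no point. Cdk4 lies at 1.24 in Ly6G+ cells and at −0.27 in HSC/P, and no gene passed the adjusted threshold in either.

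In an interaction fit to the 5 libraries with HMGA2-OE, residual spread comes only from the HSC/P RUNX1mut/HMGA2-OE pair. Its errors thus hold no spread between Ly6G+ libraries. That fit tested the difference of the RUNX1 effect between cell types. For Cdk4 it was −1.28 ± 0.18 (SE, HSC/P minus Ly6G+; limma adjusted p = 0.165), and for Cdkn1b it was 1.14 ± 0.28 (limma adjusted p = 0.233). Neither passed, nor did any of the 12686 genes (0%), 18.1% of which had an unadjusted p under 0.05. Over both cell types together, Cdkn1a had a RUNX1 effect of 0.61 ± 0.18 (SE; limma adjusted p = 0.620), the smallest p of the 9 genes. There too 0 genes passed (0%), with 7.8% under an unadjusted 0.05. These comparisons share the HSC/P HMGA2-OE and Ly6G+ HMGA2-OE libraries.

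Markers of other cells and stages differed between the same Ly6G+ libraries. In the order Control, HMGA2-OE, RUNX1mut and RUNX1mut/HMGA2-OE, the summed scaled TPM of 5 granulocyte precursor markers (Elane and Mpo among them) was 94.3, 183, 514 and 299. That of 7 HSC/P markers was 12.5, 13.6, 26.9 and 22.4. Of 5 megakaryocyte markers the sum was 4.26, 6.86, 43.0 and 37.7, with 1 marker at 0 in Control. The 6 erythroid markers summed to 67.4, 70.3, 192 and 552, and the 5 B lymphoid markers to at most 22.1 without the mutation and to 66.0 and 36.4 with it. These sums were higher in both libraries with the mutation, where Cdk4 was higher. The 5 monocyte and macrophage markers summed to 1618, 1552, 866 and 501 and were lower in both. The 10 neutrophil markers summed to 638614, 952770, 532196 and 173154, of which S100a8 made up 487464, 791255, 391222 and 19409, and the other 9 summed to 151150, 161516, 140975 and 153745. The 4 mast cell and basophil markers summed to 11.9, 26.2, 85.2 and 21.8 in the same order, so they were highest in RUNX1mut and lower with both changes than in HMGA2-OE. The 4 T and NK and the 4 stromal and endothelial markers summed to 3.02 to 16.3 in these libraries. The part of these cells in the Cdk4 difference was not tested. Of 13 tested E2F targets of S phase, 12 were higher with the mutation and 0 passed, beside 4993 of 9820 genes higher. Their median was 0.46 against 0.01 over all genes. In HSC/P 14 of 14 were lower with the mutation, beside 6349 of 12226 genes lower. The median there was −0.31 against −0.02 over all genes, and each difference rests on the single HMGA2-OE library. In the same HSC/P comparison 7 of 7 HSC/P markers were higher (median 1.35), beside 5877 of 12226 genes higher. Lower were 9 of 10 neutrophil markers (−1.93) and 6 of 6 erythroid markers (−1.17). The part of these cells was not tested.

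**Figure D5:**
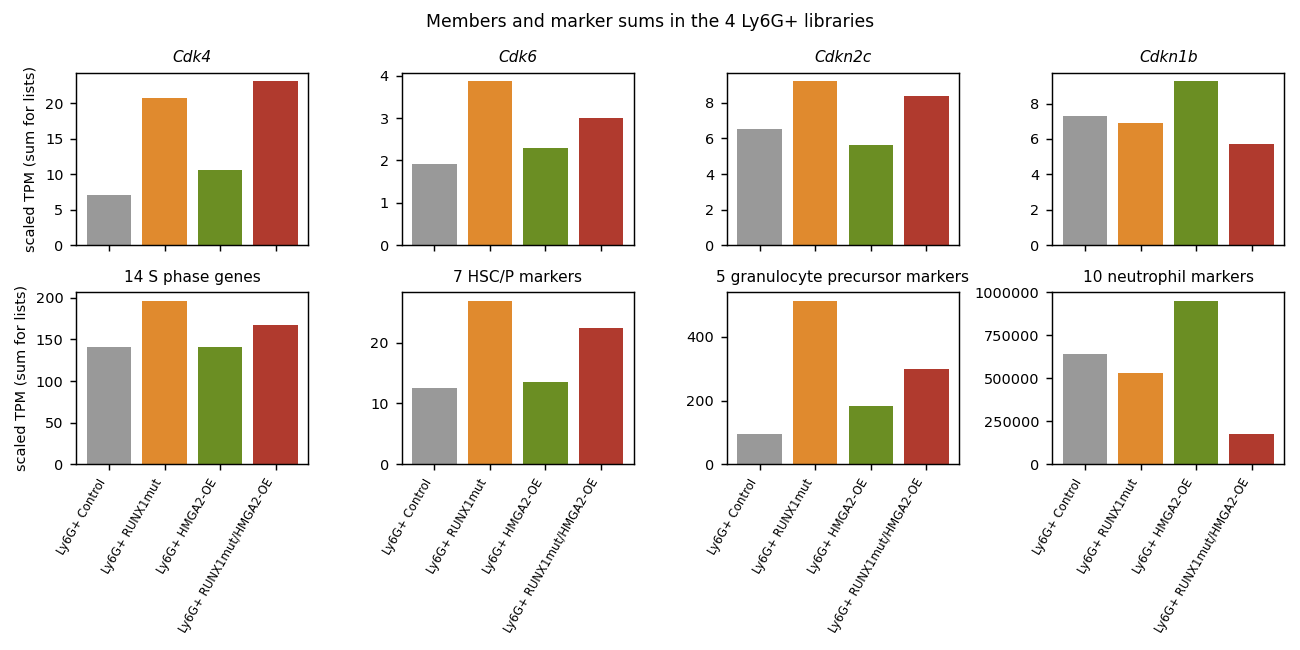
Scaled TPM of Cdk4, Cdk6, Cdkn2c and Cdkn1b (top) and summed scaled TPM of S phase genes and of HSC/P, granulocyte precursor and neutrophil markers (bottom) in the 4 Ly6G+ libraries, 1 bar per library and no error bar. Cdk4 and the granulocyte precursor sum are higher in RUNX1mut (20.8 and 514) and RUNX1mut/HMGA2-OE (23.1 and 299) than in Control (7.11 and 94.3) and HMGA2-OE (10.7 and 183).

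HMGA2 overexpression within Ly6G+ cells left the 7 members tested short of the threshold, as it did all 9820 genes (0%). Of those genes 6.51% had an unadjusted limma p under 0.05. Ccnd1 and Cdkn1c were under the filter and not tested here. The HMGA2-OE term was 0.33 ± 0.16 (SE) for Cdk4 and −0.27 ± 0.26 for Cdkn1a. None of the 7 separated the 2 libraries with HMGA2-OE from the 2 without on scaled TPM, against 16% of genes higher and 13.5% lower. As single pairs, HMGA2-OE over Control gave a log2 ratio of 0.52 for Cdk4, −0.70 for Ccnd3 and −0.65 for Cdkn1a, none at 2-fold, where 3.27% of genes were at least 2-fold higher and 3.19% lower. RUNX1mut/HMGA2-OE over RUNX1mut also put none of the 7 at 2-fold, where 3.97% of genes were higher and 4.39% lower.

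Genes with the most similar profiles were sought for the 3 members of widest range, Ccnd1, Cdk4 and Cdkn1c, by Euclidean distance between mean-centred log2 profiles over the 7 libraries. For Cdk4 these were Paics, a purine synthesis gene (distance 0.257, Pearson r 0.998), Rexo2, a mitochondrial exonuclease gene (0.323, 0.997), and Nob1, a ribosome maturation gene (0.358, 0.996). For Ccnd1 they were the linker histone gene H1fx (0.498, 0.995), Inf2, a formin gene (0.745, 0.995), and Huwe1, a ubiquitin ligase gene (0.771, 0.986). For Cdkn1c they were Ehd3 (0.404, 0.994), Myl10 (1.18, 0.982) and Fads3 (1.19, 0.941). Ehd3 shared the low value in replicate 1 of the pair, at 1.22 TPM between 12.5 in HMGA2-OE and 23.9 in replicate 2. Since the 7 points fall into 2 cell types, these coefficients describe mainly the step between them.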

How the data were processed

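RNA was measured in 7 libraries of 6 groups (HSC/P and Ly6G+ bone marrow cells). The submitters' processing notes name bcl2fastq, CASAVA 1.8, kallisto and mm10; the index and annotation release were not given in those notes. The authors deposited TPM, a unit inferred from the near-equal column sums because the header is silent. TPM carries no counts, so depth and counting error are unknown. GENCODE M21 gave symbols and coordinates for 27458 of 28987 identifiers.

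A gene entered a fit if 2 or more of its libraries reached 1 TPM. Scale factors came from a trimmed mean of log ratios without weights (trims 0.3 and 0.05), 1 TPM was added, and log2 values were fitted with limma 3.58.1 (R 4.3.3) with a variance trend. This understates differences of low genes. Tests were two-sided with Benjamini-Hochberg adjustment at 0.05 over all genes, in 6 comparisons; single Ly6G+ pairs were compared at 2-fold without a test. Residual degrees of freedom were 1 or 2, and a group with a lone library was assumed to vary like the others. The labels state individual mice, but only 1 replicate pair, in HSC/P, gives a spread between mice of 1 genotype. In the fit to the Ly6G+ libraries no genotype had a replicate. Its errors and intervals come from departure from additive RUNX1 and HMGA2-OE terms, not from spread between mice. Intervals are 95%. Figures used Python 3.11.15 and matplotlib 3.10.9. The fit was also run on simulated data in which few genes changed. That run cannot test the scaling where a large share of genes differs, as between the cell types.

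All 9 measured genes were named in HSC/P against Ly6G+, and the other comparisons name only some of them. From each pathway list the rule was to name up to 4 that passed in HSC/P against Ly6G+ with the largest change. Of the S phase list, 1 gene that the rule picks is left out of the text. The genes and lists were chosen with earlier results of these data known. Other scalings, pseudocount, filter, fits and left-out libraries were tried.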

Additional observations from a re-analysis of the deposited data

How the results depend on the processing

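In HSC/P against Ly6G+, Ccnd1, Ccnd2, Cdk4 and Cdk6 kept their direction and passed under each setting tried. Leaving out 1 library gave 6401 to 7913 genes called and 5 to 7 members called, with Cdkn1b from −0.49 to 0.68; Cdkn1a without scaling was 0.95. The RUNX1 effect over both cell types gave 0 to 1 genes called with 1 library left out, and members ran from −0.0591 to 0.66 (Ccnd1), −0.0616 to 0.58 (Ccnd3), −0.26 to 1.02 (Cdk4), −0.72 to 0.42 (Cdkn1b), −1.30 to 0.14 (Cdkn1c) and −0.25 to 0.47 (Cdkn2c). Without scaling, 88 genes were called there (Ccnd2 0.0612, Cdkn1b 0.51), 133 for the RUNX1 term in Ly6G+ (Cdkn1b 0.26), 61 for the HMGA2-OE term (Cdk6 0.0733, Ccnd3 0.0482) and 1 for the mutation in HSC/P, while the interaction turned for Ccnd3 (−0.0268) and Cdk6 (−0.62). Without scaling, 5341 genes were at least 2-fold apart in RUNX1mut/HMGA2-OE over HMGA2-OE and 1418 in RUNX1mut/HMGA2-OE over RUNX1mut. With no filter the interaction called 3250 genes (Cdkn1a 0.0290). With a pseudocount of 0.1, Cdkn1a was 0.0338 in the interaction, Ccnd3 was 0.000322 for the HMGA2-OE term, and 1000 genes (HMGA2-OE over Control) and 1421 (RUNX1mut over Control) were at least 2-fold apart. With all 7 libraries in an additive fit, the HMGA2-OE term called 58 genes and Ccnd2 was −0.17 for the RUNX1 term. That fit without Ly6G+ RUNX1mut/HMGA2-OE, chosen after seeing the data, called 45 for the HMGA2-OE term (Cdk6 0.10), with Ccnd2 at −0.0667 and Cdkn1b at 0.16 for the RUNX1 term. For all of these the cause was not tested. No paired analysis was possible because only HSC/P RUNX1mut/HMGA2-OE has more than 1 library, so the groups share fewer than 2 replicate numbers. Depth is unknown, so the precision of values under 1 TPM, such as Ccnd1 and Cdkn1c in Ly6G+ cells, cannot be stated.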
